A study of Mus musculus with 9 samples.

Results

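The genes described here are the replication-dependent histone genes of the mouse, taken as the protein-coding genes whose GENCODE M21 names (assembly GRCm38, also called mm10) begin with Hist1h, Hist2h, Hist3h or Hist4h. There were 67 of them among 56620 features, which are genes and assembled loci for which FPKM (fragment counts divided by transcript length and by the library's mapped fragments) was summed over transcripts. They comprised 6 genes of the linker histone H1, 18 of H2A, 18 of H2B, 12 of H3 and 13 of H4. The Hist1 cluster on chromosome 13 held 54 of them, the Hist2 cluster on chromosome 3 held 10 and the Hist3 cluster on chromosome 11 held 2, while Hist4h4 stood alone on chromosome 6. RNA came from cultured mouse lung cells that the submitters call PMVECs, pulmonary microvascular endothelial cells, supplied commercially. All were kept for 48 h, in 21% oxygen (room air, RA), in 85% oxygen (hyperoxia, HO), or in 85% oxygen plus 100 ng/ml of the recombinant secreted ligand WNT5A (HO-rWNT5A). Each condition has 3 libraries that are not stated to be independent cultures, and every p-value therefore reflects library-to-library spread, possibly technical. The labels used here give no genotype, strain or age for the cells.

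Replication-dependent histone genes supply the proteins that package newly copied DNA, and in dividing cells their messenger RNAs are made mainly during S phase. Most of these messenger RNAs end in a conserved stem-loop in place of a poly(A) tail, and the stem-loop is bound by SLBP, which takes part in their processing, translation and decay. H2A, H2B, H3 and H4 form the core of the nucleosome, H1 binds the DNA that enters and leaves it, and each class is encoded by several or many similar genes.

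The stem-loops are shown because they mark the family and because genes with different changes carry the same one. The 26-base stretches below are read 5′ to 3′ on the gene's strand from GENCODE M21 transcripts, with the paired arms of the stem in capitals. The first 5 are from genes that fell in HO-rWNT5A against RA. The last 3, from Hist1h1c, Hist1h4i and Hist3h2a, are from genes that passed in none of the 3 comparisons over all 9 libraries.
Hist1h3b: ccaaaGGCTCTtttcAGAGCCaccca
Hist2h3c2: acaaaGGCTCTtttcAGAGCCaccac
Hist1h2ag: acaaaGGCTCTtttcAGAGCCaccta
Hist1h2bk: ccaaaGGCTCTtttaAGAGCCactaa
Hist1h4n: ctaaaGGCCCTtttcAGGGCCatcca
Hist1h1c: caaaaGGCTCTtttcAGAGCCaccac
Hist1h4i: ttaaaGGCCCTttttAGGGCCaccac
Hist3h2a: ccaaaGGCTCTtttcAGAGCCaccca
A stem-loop of this form was found in the transcript models of 46 of the 67 genes. Another 15 had fewer than 16 bases after the coding sequence in their models, too few for the 16-base pattern. The remaining 6 had 16 or more such bases without a match, among them Hist1h2bc and Hist2h2be. The form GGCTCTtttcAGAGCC was shared by 26 genes of the H1, H2A, H2B and H3 classes, and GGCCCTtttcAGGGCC by 7 genes, each of them an H4 gene. The pattern also occurred somewhere in the transcripts of 740 of 21951 protein-coding genes (3.37%), histone genes included.

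The upstream stretches of 6 genes show motifs known from histone promoters in members with different changes. Each is the 150 bases before the RefSeq gene start (GRCm38.p6), read 5′ to 3′ on the gene's strand. Capitals mark the letters TATAAA, the TATA box motif, on this strand. They also mark, on either strand, the CCAAT box, the octamer ATTTGCAT, the H1 box AAACACA and the H4 element GGTCCG, with overlapping matches merged. Matches were marked and counted at any distance from the gene start. In Hist1h4n and Hist1h4i the TATAAA lies near the end of the stretch farthest from the start. Whether any match works as a TATA box was not tested. Hist1h1b (chr13:21780626-21780775, minus strand) and Hist1h1c (chr13:23738657-23738806, plus strand) are linker histone genes. Hist1h4n (chr13:21832198-21832347, minus strand) and Hist1h4i (chr13:22041363-22041512, minus strand) are H4 genes. Hist1h2ae (chr13:23571221-23571370, minus strand) and Hist1h2bg (chr13:23571250-23571399, plus strand) point away from each other, so that 1 octamer is read from both strands.
Hist1h1b: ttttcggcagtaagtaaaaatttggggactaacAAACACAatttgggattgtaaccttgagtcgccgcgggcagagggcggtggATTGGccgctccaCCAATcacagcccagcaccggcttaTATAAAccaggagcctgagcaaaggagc
Hist1h1c: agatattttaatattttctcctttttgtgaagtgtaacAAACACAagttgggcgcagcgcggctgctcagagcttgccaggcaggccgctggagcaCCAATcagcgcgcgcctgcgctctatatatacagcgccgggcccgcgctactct
Hist1h4n: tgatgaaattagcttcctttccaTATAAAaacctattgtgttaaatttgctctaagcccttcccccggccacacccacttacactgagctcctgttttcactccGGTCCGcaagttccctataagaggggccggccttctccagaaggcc
Hist1h4i: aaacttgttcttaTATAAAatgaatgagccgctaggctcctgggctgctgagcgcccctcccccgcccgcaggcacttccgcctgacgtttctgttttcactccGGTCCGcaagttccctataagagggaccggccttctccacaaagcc
Hist1h2ae: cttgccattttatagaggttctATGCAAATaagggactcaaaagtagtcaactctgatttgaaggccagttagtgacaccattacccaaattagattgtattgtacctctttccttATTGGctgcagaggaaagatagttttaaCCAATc
Hist1h2bg: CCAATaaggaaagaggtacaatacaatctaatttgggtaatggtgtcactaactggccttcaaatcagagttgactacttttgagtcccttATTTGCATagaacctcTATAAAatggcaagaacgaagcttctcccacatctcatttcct
A RefSeq promoter was matched for 61 of the 67 genes, and the 250 bases upstream of the start were searched. The H4 element was in 9 of 12 H4 promoters and in 6.72% of all 32851 promoters. The H1 box was in 5 of 6 H1 promoters and in 6.25% of all. The octamer was in 7 of 17 H2A and 6 of 16 H2B promoters and in 1.60% of all. A CCAAT match was in 50 of the 61 and in 33.8% of all, and TATAAA was in 24 of the 61 and in 7.59% of all.

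The summed level of the 67 genes was lower in every HO-rWNT5A library than in every RA library, and 1 of the HO libraries was lower still. After median-ratio scaling of the libraries, the sum was 1413, 1476 and 1667 FPKM in RA replicates 1 to 3, 1539, 1465 and 1052 in the HO replicates and 1206, 1094 and 1134 in the HO-rWNT5A replicates. HO replicates 1 and 2 lay within the range of RA, and HO replicate 3 was below every other library. The mean sums were 1518 ± 132, 1352 ± 263 and 1145 ± 56.8 FPKM for the 3 conditions in that order (SD, n = 3 each). The ratio of means was 0.890 for HO to RA, 0.847 for HO-rWNT5A to HO and 0.754 for HO-rWNT5A to RA. Without HO replicate 3, the HO to RA ratio was 0.989 and the HO-rWNT5A to HO ratio was 0.762. These are sums over whole cultures, in which fewer cells in S phase and less histone RNA per cell cannot be told apart. Sums over a chosen list are described here and were not tested.

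**Figure D1:**
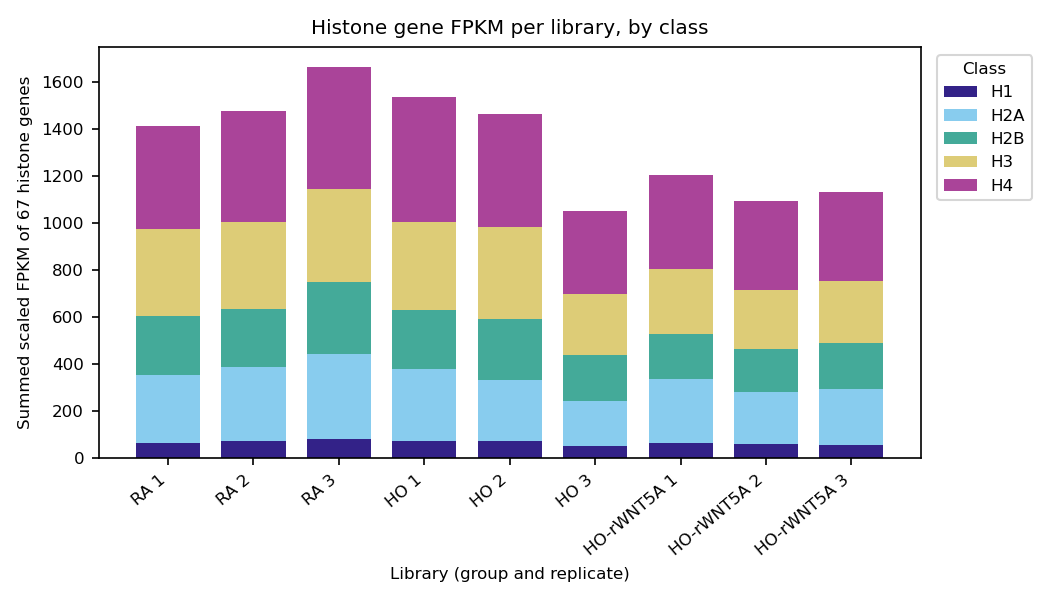
Summed scaled FPKM of the 67 histone genes in each of the 9 libraries, stacked by class (H1, H2A, H2B, H3, H4). The HO-rWNT5A bars (1094 to 1206) are all below the RA bars (1413 to 1667), and HO replicate 3 (1052) is the lowest bar.

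HO replicate 3 stood apart across the family. Of the 63 histone genes that entered the test, 56 were below the lowest RA library in HO replicate 3, against 19 and 25 in HO replicates 1 and 2. In the HO-rWNT5A libraries that number was 49, 55 and 50. The median difference from the RA mean on the log2(FPKM + 1) scale was -0.49 in HO replicate 3, -0.01 and -0.07 in the other HO libraries, and -0.36, -0.45 and -0.42 in HO-rWNT5A. Small structural RNA took 20.6% of FPKM in HO replicate 3, 27.8% and 27.02% in the other HO libraries, 21.9 to 25.4% with RA and 23.97 to 28.5% with HO-rWNT5A. Retained-intron transcripts took 7.09%, 5.49% and 5.26%, 6.33 to 6.58% and 5.96 to 6.58% in the same order. HO replicate 3 thus had the lowest structural RNA and the highest retained-intron share of the 9, nearer to RA than to the other HO libraries, and HO replicates 1 and 2 had the lowest retained-intron shares. The part of these values in the histone levels was not tested. The summed FPKM of 34 genes of DNA replication and S phase was 206 to 212 with RA, 185, 195 and 184 in HO replicates 1, 2 and 3, and 177 to 181 with HO-rWNT5A. Every HO library was below RA and every HO-rWNT5A library below HO on this sum, and HO replicate 3 was close to HO replicate 1.

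**Figure D2:**
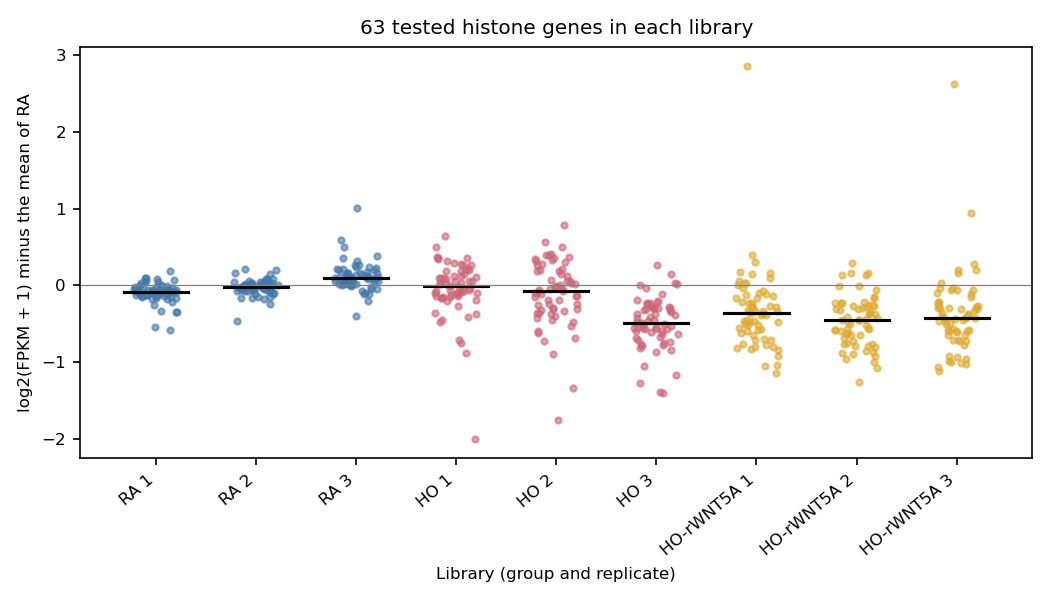
Each point is 1 of the 63 tested histone genes in 1 library, as log2(FPKM + 1) minus that gene's RA mean, and the black line is the median. The medians are near 0 in HO replicates 1 and 2 (-0.01 and -0.07) and lower in HO replicate 3 (-0.49) and in the HO-rWNT5A libraries (-0.36 to -0.45).

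Of 15 genes that mark endothelium, 4 reached a mean of 1 FPKM and 3 reached 5 FPKM. Those 3 were Flt1, Ets1 and Emcn, with means of 37.9, 21.8 and 10.1 FPKM over the 9 libraries, and Kdr was just above 1 FPKM. The defining markers Pecam1, Cdh5 and Vwf were near 0 (0.0930 ± 0.0350, 0.0543 ± 0.0176 and 0.0442 ± 0.0579 FPKM, SD, n = 9). Of 10 pericyte and smooth muscle markers, 7 reached 5 FPKM. Their summed FPKM was 2958 to 3308 across RA, 2429 to 3307 across HO and 2717 to 3115 across HO-rWNT5A libraries, with the lowest value in HO replicate 3, and the part of this in the histone levels was not tested. The endothelial markers summed to 69.7 to 75.9 across RA, 72.3 to 76.8 across HO and 65.5 to 73.3 across HO-rWNT5A libraries. Of 10 markers each, 4 fibroblast, 3 epithelial and 0 leukocyte markers reached 5 FPKM. Read depth, estimated roughly from the steps of the FPKM values, was 21300000 to 26500000 fragments per library.

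By class, the sums of H2A, H2B, H3 and H4 were lower in every HO-rWNT5A library than in every RA library, while those of H1 overlapped. H3 summed to 378 ± 14.95, 344 ± 70.5 and 265 ± 13.2 FPKM in RA, HO and HO-rWNT5A (SD, n = 3), a ratio of HO-rWNT5A to RA of 0.699. H2B summed to 269 ± 35.01, 234 ± 36.1 and 192 ± 5.35 (ratio 0.714). In RA replicate 3 the copies Hist1h2bq and Hist1h2br held 74.5 of the 309 FPKM of H2B. In RA replicates 1 and 2 they held 29.5 of 251 and 31.7 of 246, so the H2B ratio rests partly on this pair. H2A summed to 324 ± 35.7, 253 ± 57.2 and 242 ± 25.8 (ratio 0.748). In H4, the class with the highest sum, the values were 476 ± 41.4, 456 ± 93.2 and 386 ± 12.8 (ratio 0.810), and in H1, the class with the lowest, 70.7 ± 8.06, 65.3 ± 12.3 and 59.7 ± 4.12 (ratio 0.845). Between HO and RA the libraries of all 5 classes overlapped, with ratios from 0.780 for H2A to 0.957 for H4. Without HO replicate 3 these ratios were 1.02 for H1, 0.873 for H2A, 0.947 for H2B, 1.02 for H3 and 1.07 for H4, so that those of H1, H3 and H4 lay above 1.

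As a share of the summed histone FPKM, H4 made up 31.4 ± 0.434, 33.7 ± 0.879 and 33.7 ± 0.671% (RA, HO and HO-rWNT5A, SD, n = 3), and its share was higher in every 85% oxygen library than in every RA library. H2A made up 21.3 ± 0.598, 18.6 ± 1.13 and 21.1 ± 1.19% in the same order, and its share was lower in every HO library than in every RA library. H3 made up 24.98 ± 1.19, 25.4 ± 1.29 and 23.1 ± 0.172%, and H1 made up 4.65 ± 0.165, 4.83 ± 0.124 and 5.22 ± 0.201%. H2B stayed between 15.95% and 18.6% in the 9 libraries. The mix of classes thus moved by a few percentage points between groups.

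By cluster, Hist1 accounted for 82.8% to 88.4% of histone FPKM in a library, and its sum was 1291 ± 108, 1175 ± 228 and 966 ± 28.2 in RA, HO and HO-rWNT5A. Hist2 summed to 207 ± 24.2, 153 ± 39.7 and 158 ± 29.9, and its groups overlapped in all 3 comparisons. The 2 Hist3 genes summed to 16.4 ± 0.438, 18.9 ± 2.07 and 17.5 ± 0.993, and Hist4h4 averaged 3.41 ± 0.199, 4.42 ± 1.06 and 3.32 ± 0.569. At both small loci the groups overlapped.

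For single genes, limma was run on log2(scaled FPKM + 1) over the 13831 features with a mean of at least 1 FPKM, with Benjamini-Hochberg adjustment over all of them and a threshold of 0.05. Of the 67 histone genes, 63 were tested. The other 4 were the testis-type genes Hist1h1t, Hist1h2aa and Hist1h2ba, and Hist3h2ba, whose highest library reached 1.54 FPKM. Just inside the limit were Hist2h2be with a mean of 1.04 FPKM and Hist2h2ab with 1.24. Any 2 of the 3 comparisons share a group of libraries, so the comparisons are not independent.

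In HO against RA, 2 of 63 histone genes fell, the linker histone gene Hist1h1b and the H3 gene Hist2h3c2, and 0 rose. Of all features tested, 1.97% passed in HO against RA, 0.788% as lower and 1.19% as higher. The median log2 fold change of the 63 was -0.22, against -0.01 over all features, and 47 of 63 were below 0 (51.8% of all features). The HO libraries were all below the RA libraries for 8 of 63 (10.4% of all features), a share near the background, and all above them for 1 (11.1% of all features). At an unadjusted p below 0.05 there were 21 of 63, against 18.2% of all features. By class the median was -0.36 in H1, -0.30 in H2A, -0.13 in H2B, -0.31 in H3 and 0.02 in H4, where 6 of 13 genes were below 0.

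The count in HO against RA depended on single libraries. Without HO replicate 3, 3 of the 63 fell and 4 rose (2.17% and 2.88% of all features), and the median was -0.07. Named after their values were seen, those that then passed as higher were Hist1h4i (log2 fold change 0.42), Hist1h2ab (0.52), Hist3h2a (0.25) and Hist1h3i (0.33). Those lower were Hist1h1b (-0.82), Hist2h3c2 (-0.43) and its copy Hist2h3c1 (-1.87). Without HO replicate 1 there were 6 and without HO replicate 2 there were 4, all lower (0.680% and 0.383% of all features as lower). Without RA replicate 2 or RA replicate 3 there were 0 in limma (0.0217% and 0.116% of all features in either direction, with 14 and 12 of the 63 at an unadjusted p below 0.05). Without RA replicate 1 there was 1 (0.181% of all features), as without any 1 HO-rWNT5A library (0.897% to 1.34%).

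In HO-rWNT5A against HO, 0 of 63 histone genes passed in limma, where 0.00723% of all features did, a single feature that was lower. At an unadjusted p below 0.05 there were 24 of 63, against 9.25% of all features. The median log2 fold change was -0.25 against 0.00 over all features, and 56 of 63 were below 0 (48.7% of all features). The HO-rWNT5A libraries were all below the HO libraries for 13 of 63 (6.75% of all features) and all above them for 0 (6.31% of all features). Without HO replicate 3, 7 fell and 0 rose (0.174% and 0.0434% of all features), with a median of -0.40. Those 7, named after their values were seen, were the H3 genes Hist1h3b (-0.53), Hist1h3e (-0.55), Hist1h3g (-0.51), Hist1h3i (-0.59) and Hist2h3b (-0.71), with Hist1h2bg (-0.47) and Hist1h4k (-0.66). Without HO-rWNT5A replicate 2, 1 passed, and it was higher (0.0362% of all features in either direction).

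In HO-rWNT5A against RA, 19 of 63 histone genes fell and 0 rose. Of all features, 4.35% passed in this comparison, 1.92% as lower and 2.42% as higher. The 19 were 7 of 17 tested H2A genes, 7 of 12 H3 genes, 2 of 16 H2B genes, 2 of 13 H4 genes and 1 of 5 H1 genes. The median log2 fold change of the 63 was -0.39 against 0.00 over all features, and 54 of 63 were below 0 (51.3% of all features). The HO-rWNT5A libraries were all below the RA libraries for 46 of 63 (16.7% of all features) and all above for 2 (16.2% of all features), which were Hist1h4i and Hist3h2a. At an unadjusted p below 0.05 there were 41 of 63, against 20.9% of all features. Without any 1 of the RA or HO-rWNT5A libraries the count was 5 to 7, and the calls over all features were also fewer (0.904% to 1.47%, and 0.369% to 0.643% as lower). Without HO replicate 3 it was 33, all lower (3.54% of all features as lower). Hist1h1b passed in 27 of 27 alternatives and Hist2h3c2 in 26 of 26. For genes with an identical copy, such as Hist2h3c2, the 26 leave out the merging of identical coding sequences. In that fit such a gene is not a feature of its own.

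**Figure D3:**
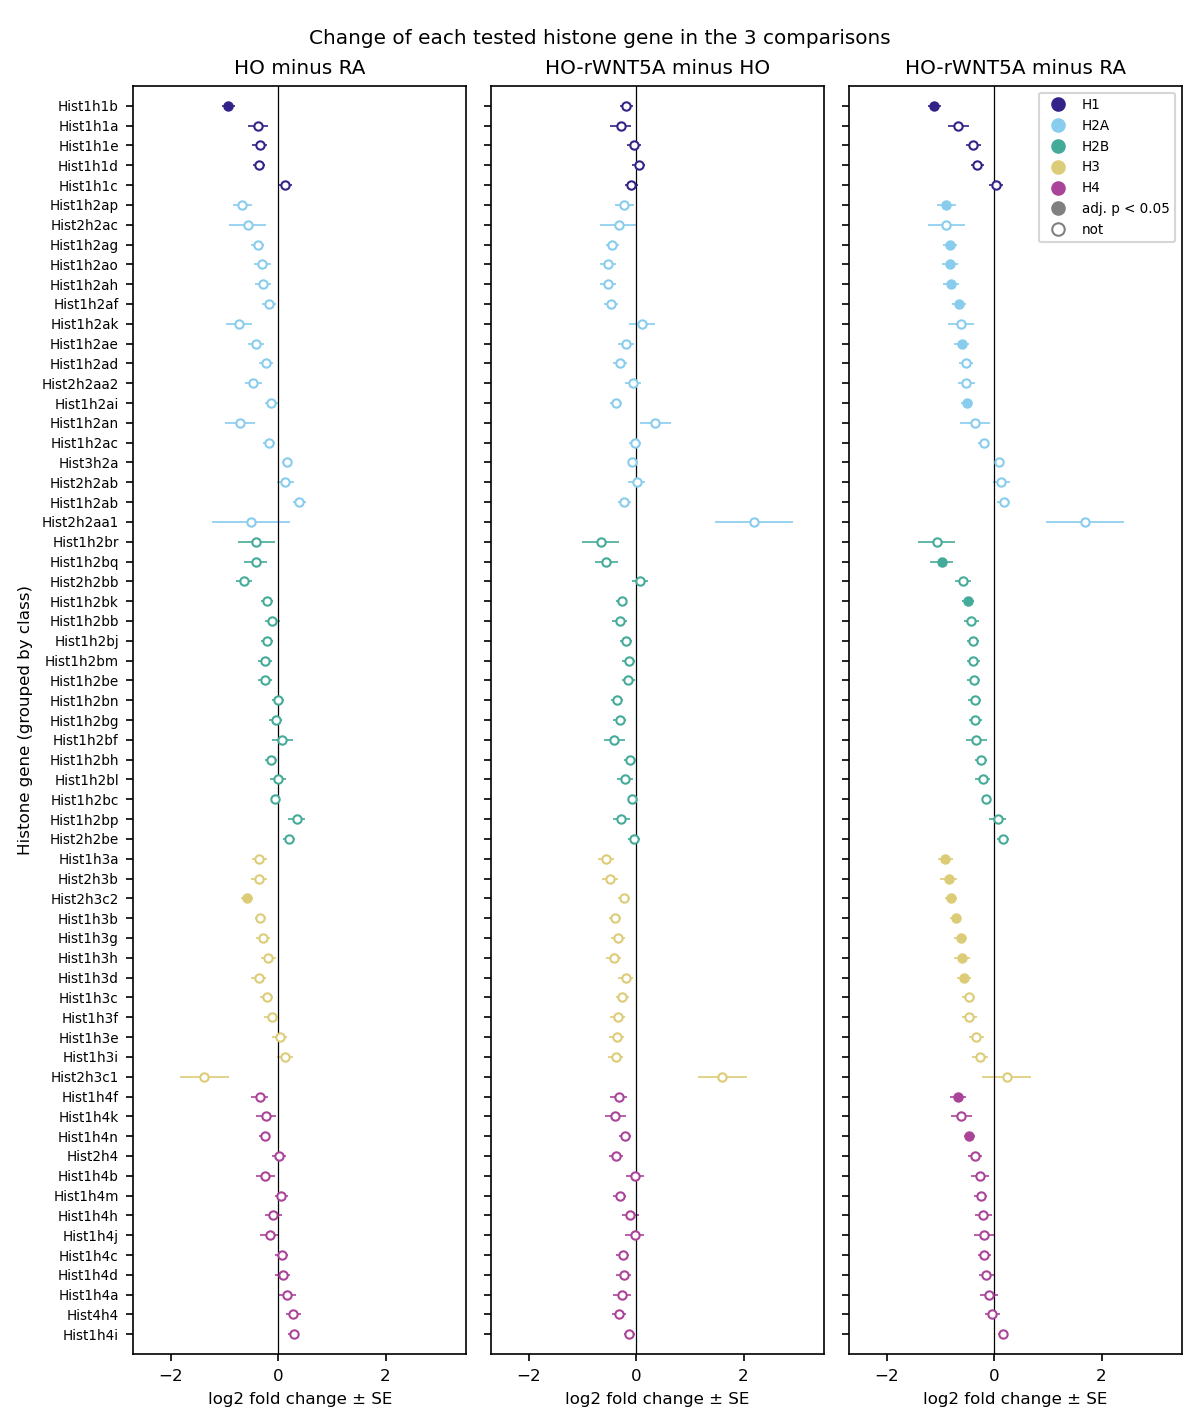
log2 fold change ± SE of each of the 63 tested histone genes in the 3 comparisons, coloured by class, filled where the limma adjusted p was below 0.05. Filled points number 2 in HO minus RA, 0 in HO-rWNT5A minus HO and 19 in HO-rWNT5A minus RA, all of them below 0.

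Among linker histones, Hist1h1b fell and Hist1h1c, the highest in FPKM, passed in no comparison. Hist1h1b (H1.5, chromosome 13, 21779883 to 21780625) stood at 8.94, 9.60 and 11.6 FPKM in the RA libraries, 5.55, 4.93 and 3.90 in the HO libraries and 4.33, 3.59 and 4.29 in the HO-rWNT5A libraries. Every library in 85% oxygen was below every RA library. Its log2 fold change was -0.93 ± 0.122 (SE, limma adjusted p = 0.0111) in HO against RA and -1.12 ± 0.122 (adjusted p = 0.00325) in HO-rWNT5A against RA. In HO-rWNT5A against HO it was -0.19 ± 0.122 (limma adjusted p = 0.664). No 100-base window of its coding sequence occurred in another gene. In HO against RA it passed in 23 of 27 alternatives, with limma adjusted p up to 0.0930.

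Hist1h1c (H1.2) held 67.2% of the FPKM of the class. That share depends on the annotated model lengths, which were 1560 bases for Hist1h1c, 743 for Hist1h1b and 7425 for Hist1h1d. Hist1h1c stood at 38.4, 42.3 and 45.4 FPKM in the RA libraries, 49.2, 53.3 and 36.7 in the HO libraries and 47.3, 41.6 and 40.4 in the HO-rWNT5A libraries. The groups overlapped in all 3 comparisons, and its log2 fold change in HO-rWNT5A against RA was 0.03 ± 0.124 (limma adjusted p = 0.911). Without Hist1h1c, the ratio of the H1 sum was 0.658 for HO to RA and 0.582 for HO-rWNT5A to RA. Hist1h1e (H1.4), the next in level, stood at 8.53, 9.14 and 10.4 FPKM in the RA libraries, 8.90, 7.29 and 5.51 in the HO libraries and 7.12, 7.28 and 6.26 in the HO-rWNT5A libraries. Its HO-rWNT5A libraries were all below RA, with a log2 fold change of -0.39 ± 0.135 that did not pass (limma adjusted p = 0.130). Hist1h1a and Hist1h1d averaged 6.68 and 2.58 FPKM in RA and 3.74 and 1.87 in HO-rWNT5A, and neither passed.

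H3 is the nucleosome core protein that carries many of the regulated histone marks, and its genes had a median of -0.58 in HO-rWNT5A against RA, the lowest of the 5 classes. Hist2h3c2 (chromosome 3, 96238108 to 96239127) stood at 19.2, 20.2 and 22.3 FPKM in the RA libraries, 14.8, 15.1 and 10.9 in the HO libraries and 11.4, 10.6 and 12.03 in the HO-rWNT5A libraries. All HO and all HO-rWNT5A libraries were below RA. Its log2 fold change was -0.58 ± 0.111 (limma adjusted p = 0.0341) in HO against RA, where it passed in 16 of 26 alternatives, and -0.81 ± 0.111 (adjusted p = 0.00545) in HO-rWNT5A against RA. Hist1h3b (chromosome 13, 23752267 to 23752886) stood at 38.3, 40.5 and 43.2 FPKM in the RA libraries, 36.7, 34.3 and 26.3 in the HO libraries and 22.7, 25.96 and 24.2 in the HO-rWNT5A libraries. Its 3 groups did not overlap, with RA highest and HO-rWNT5A lowest. The log2 fold change from RA to HO-rWNT5A was -0.72 ± 0.109 (limma adjusted p = 0.00828).

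Hist2h3b (chromosome 3, 96268654 to 96269141) stood at 24.2, 26.99 and 28.3 FPKM in the RA libraries, 24.04, 23.7 and 14.8 in the HO libraries and 15, 12.8 and 15.1 in the HO-rWNT5A libraries. HO replicate 3 lay among the HO-rWNT5A libraries, and the other HO libraries lay just below the lowest RA library. Hist1h3g (chromosome 13, 23535422 to 23535951) had the same arrangement of HO replicate 3, with 35.02, 39.2 and 38.7 FPKM under RA, 33.95, 35.7 and 23.9 under HO and 22.7, 24.8 and 24.8 under HO-rWNT5A. Hist1h3a (chromosome 13, 23761853 to 23762386) measured 5.62, 6.56 and 8.83 FPKM under RA, 4.66, 6.32 and 4.74 under HO and 3.17, 3.59 and 2.88 under HO-rWNT5A. Its HO-rWNT5A libraries were below both other groups. Hist1h3d (chromosome 13, 23575763 to 23577011) measured 12.6, 12.9 and 14.6 FPKM under RA, 10.1, 12.9 and 7.92 under HO and 8.17, 8.68 and 9.39 under HO-rWNT5A, with HO replicate 3 the lowest of the 9. In HO-rWNT5A against RA the log2 fold changes of Hist2h3b, Hist1h3g, Hist1h3a and Hist1h3d were -0.85, -0.62, -0.91 and -0.56 (limma adjusted p = 0.0190, 0.0254, 0.0110 and 0.0473).

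Neither of the 2 H3 genes with the highest levels passed in any comparison. Hist1h3i measured 81.1, 76.3 and 84.6 FPKM under RA, 96.8, 106 and 65.7 under HO and 73.8, 65.1 and 62.5 under HO-rWNT5A. Hist1h3e measured 52.2, 52.7 and 52.2 FPKM under RA, 58.1, 63.7 and 40.9 under HO and 46.9, 37.4 and 40.3 under HO-rWNT5A. For both, HO replicates 1 and 2 were above RA and HO replicate 3 was below it, and the HO-rWNT5A libraries were all below RA. Their log2 fold changes in HO-rWNT5A against RA were -0.26 and -0.34 (limma adjusted p = 0.349 and 0.205). Of the other H3 genes, Hist1h3h fell with -0.60, and Hist1h3c and Hist1h3f did not pass with -0.48 and -0.46.

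H4 pairs with H3 in the nucleosome core, and all 13 H4 genes encode 1 protein. Hist1h4n, the gene with the highest mean of the 67 (104 FPKM over 9 libraries), stood at 111, 119 and 136 FPKM in the RA libraries, 121, 98.9 and 88.6 in the HO libraries and 88.9, 89.2 and 86.4 in the HO-rWNT5A libraries. Its HO-rWNT5A libraries were close together and below RA, with a log2 fold change of -0.46 ± 0.107 (limma adjusted p = 0.0421). Hist1h4f (chromosome 13, 23551258 to 23551648) measured 25.3, 29.8 and 29.04 FPKM under RA, 26.1, 24.3 and 16.3 under HO and 18.4, 14.9 and 18.3 under HO-rWNT5A. It also fell from RA to HO-rWNT5A, by 0.67 on the log2 scale (SE 0.153, limma adjusted p = 0.0386). Hist1h4h, the second highest H4 gene, measured 70.8, 74.9 and 90.6 FPKM under RA, 89.5, 80.3 and 54.8 under HO and 74.2, 66.4 and 63.5 under HO-rWNT5A, and its groups overlapped.

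Hist1h4i, named after its values were seen, was the 1 tested histone gene with every HO library above every RA library. It stood at 21.5, 21.8 and 21.3 FPKM in the RA libraries, 30.99, 27.4 and 21.8 in the HO libraries and 24.4, 24.1 and 24.1 in the HO-rWNT5A libraries. The HO-rWNT5A libraries were above RA too, and HO replicate 3 was above it by a narrow margin. Its log2 fold changes of 0.29 ± 0.0994 in HO and 0.16 ± 0.0994 in HO-rWNT5A against RA did not pass (limma adjusted p = 0.171 and 0.396). The other 9 H4 genes (Hist1h4a, Hist1h4b, Hist1h4c, Hist1h4d, Hist1h4j, Hist1h4k, Hist1h4m, Hist2h4 and Hist4h4) ranged from -0.61 to -0.04 in HO-rWNT5A against RA, and none of them passed in any of the 3 comparisons over all libraries.

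**Figure D4:**
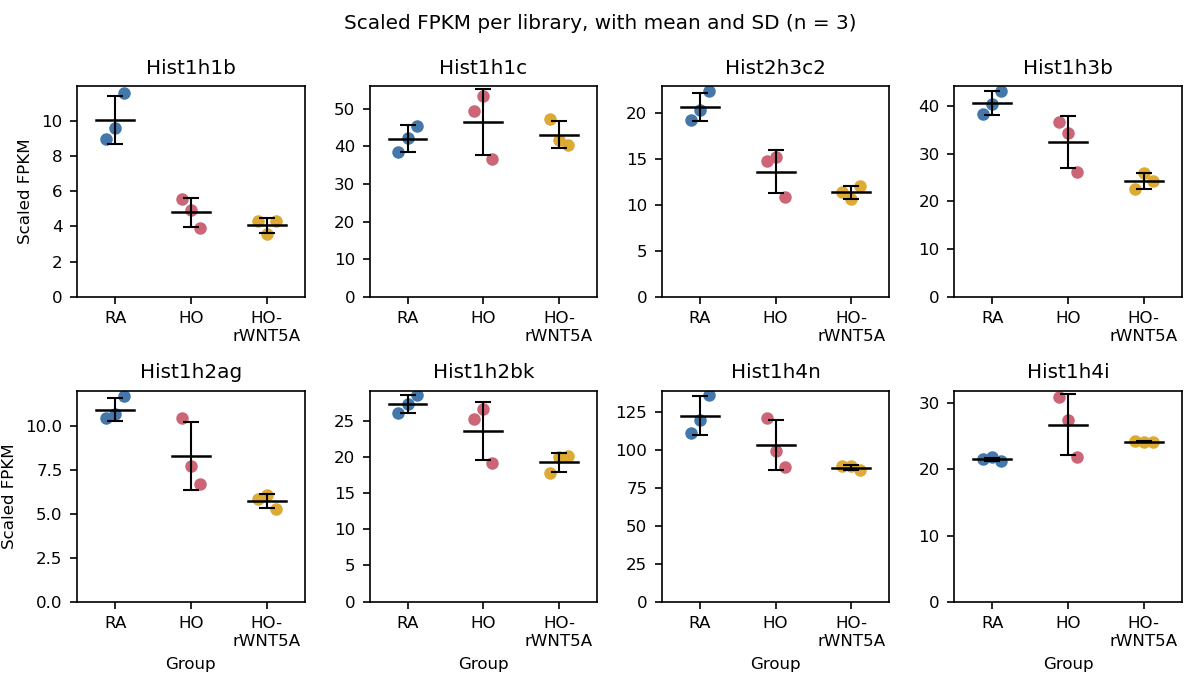
Scaled FPKM of 8 histone genes in each library (points), with the mean and SD of each group (n = 3), y axes from 0. Hist1h1b is lower in all 85% oxygen libraries (3.59 to 5.55 against 8.94 to 11.6 in RA), Hist1h1c overlaps between groups, and Hist1h4i is lowest in RA (21.3 to 21.8).

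H2A and H2B form dimers that flank H3 and H4 in the nucleosome core, and many of their genes lie in divergent pairs. Of the H2A genes, Hist1h2ag (chromosome 13, 22042460 to 22042944) stood at 10.4, 10.7 and 11.7 FPKM in the RA libraries, 10.5, 7.74 and 6.69 in the HO libraries and 5.88, 6.07 and 5.31 in the HO-rWNT5A libraries. Its HO-rWNT5A libraries were below both other groups, and the log2 fold change from RA was -0.82 ± 0.125 (limma adjusted p = 0.00828). Hist1h2ap (chromosome 13, 21833026 to 21833507) stood at 13.5, 14.3 and 18.6 FPKM in the RA libraries, 11.8, 9.65 and 6.91 in the HO libraries and 8.15, 8.87 and 6.54 in the HO-rWNT5A libraries. All libraries in 85% oxygen were below RA. It passed in HO-rWNT5A against RA (-0.89 ± 0.175, limma adjusted p = 0.0234) but not in HO against RA (-0.67, limma adjusted p = 0.0825), and the difference between these changes is its change in HO-rWNT5A against HO, -0.22, which did not pass. Hist1h2ae (chromosome 13, 23570517 to 23571220) measured 7.78, 9.25 and 7.45 FPKM under RA, 7.40, 5.30 and 5.05 under HO and 4.57, 4.30 and 6.26 under HO-rWNT5A. All libraries in 85% oxygen were below RA here too, and it passed narrowly in HO-rWNT5A against RA (-0.61 ± 0.149, limma adjusted p = 0.0489).

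Hist1h2bg, the divergent partner of Hist1h2ae and the highest H2B gene, measured 35.2, 33.95 and 38.1 FPKM under RA, 38.1, 39.6 and 27.3 under HO and 25.4, 28.9 and 29.1 under HO-rWNT5A. The HO-rWNT5A libraries were all below RA, but the log2 fold change of -0.35 ± 0.122 did not pass (limma adjusted p = 0.129). Hist1h2bc, the second highest H2B gene, measured 32.4, 30.2 and 29.6 FPKM under RA, 31.1, 31.1 and 25.8 under HO and 27.3, 27.4 and 28.2 under HO-rWNT5A. Its HO-rWNT5A libraries were slightly below RA (log2 fold change -0.15, limma adjusted p = 0.289). Hist1h2bk and Hist1h2bq were the 2 H2B genes that fell, by 0.48 and 0.98 on the log2 scale in HO-rWNT5A against RA.

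The highest H2A genes were Hist2h2aa2 and Hist1h2ak. Hist1h2ak stood at 37.98, 42.6 and 43 FPKM in the RA libraries, 24.8, 38.5 and 14.99 in the HO libraries and 27.7, 27.04 and 24.7 in the HO-rWNT5A libraries. Its HO libraries ranged from the lowest value of the 9 up to the RA range, and its log2 fold change from RA to HO-rWNT5A of -0.62 ± 0.243 did not pass (limma adjusted p = 0.180). Hist1h2ah, Hist1h2ao, Hist1h2af and Hist1h2ai also fell from RA to HO-rWNT5A, by 0.81, 0.82, 0.65 and 0.50 on the log2 scale. Of the remaining H2A genes, Hist1h2ab, Hist1h2ac, Hist1h2ad, Hist1h2an, Hist2h2ab, Hist2h2ac and Hist3h2a ranged from -0.89 to 0.17 in HO-rWNT5A against RA and did not pass in any comparison over all libraries. The H2B genes Hist1h2bb, Hist1h2be, Hist1h2bf, Hist1h2bh, Hist1h2bj, Hist1h2bl, Hist1h2bm, Hist1h2bn, Hist1h2bp, Hist2h2bb and Hist2h2be ranged from -0.58 to 0.16 and did not pass either.

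The similarity of the copies limits what a single gene's value means. The 67 genes had 62 distinct coding sequences and 29 distinct proteins, and the 12 H3 genes encoded 2 proteins, 1 of them from 8 genes. Of the 67, 59 shared at least 1 window of 100 coding bases with another gene, 13 shared all of theirs and 8 shared none. The other gene could be any in the annotation, and 8 genes outside the 67 shared such windows. How fragments from such stretches were divided between copies is not given in the sources used here. The median share of coding windows found in another gene was 4.90% in H1, 85.9% in H2A, 51.95% in H2B, 71.6% in H3 and 60.1% in H4.

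Genes with identical coding sequences can be set side by side. Hist2h2aa1 stood at 5.12, 5.52 and 4.12 FPKM in the RA libraries, 6.63, 1.33 and 2.99 in the HO libraries and 41.7, 3.41 and 35.3 in the HO-rWNT5A libraries. Its copy Hist2h2aa2 stood at 67.9, 68.3 and 84.8 FPKM in the RA libraries, 68.9, 48.4 and 44.3 in the HO libraries and 57.04, 51.4 and 44.4 in the HO-rWNT5A libraries. The high values of Hist2h2aa1 were in 2 of 3 libraries of its group, and its log2 fold change of 1.69 ± 0.731 in HO-rWNT5A against RA did not pass (limma adjusted p = 0.221). The pair summed to 78.6 ± 8.94, 57.5 ± 15.7 and 77.7 ± 22.02 FPKM in RA, HO and HO-rWNT5A, and its groups overlapped.

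For the H3 copies Hist2h3c1 and Hist2h3c2, the sum was 23.1, 24.2 and 24.6 FPKM in the RA libraries, 14.9, 15.4 and 13.2 in the HO libraries and 16.05, 12.3 and 19.3 in the HO-rWNT5A libraries. The pair was lower in every 85% oxygen library than in every RA library, with a ratio of 0.604 for HO to RA and 0.663 for HO-rWNT5A to RA. Hist2h3c1 alone had 0.0793 and 0.288 FPKM in HO replicates 1 and 2 and 7.31 in HO-rWNT5A replicate 3. For Hist1h2bq and Hist1h2br, RA replicate 3 was far from the others: their sum was 29.5, 31.7 and 74.5 FPKM in the RA libraries, 36.1, 33.4 and 23.1 in the HO libraries and 18.2, 19.3 and 19.98 in the HO-rWNT5A libraries. In RA replicate 3 the 381-base transcript models of Hist1h2bq and Hist1h2br had 24.5 and 44 FPKM and their models of 1254 and 1256 bases had 0 and 0.962. In RA replicate 1 the short models had 3.19 and 3.72 and the longer ones 9.97 and 8.85. FPKM is per length, so the same number of fragments gives a higher value on a short model. The part of this in the value of RA replicate 3 was not tested. Hist1h2bq passed in 19 of 26 alternatives in HO-rWNT5A against RA, and Hist1h2br did not pass (log2 fold change -1.07 ± 0.346, limma adjusted p = 0.110).

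**Figure D5:**
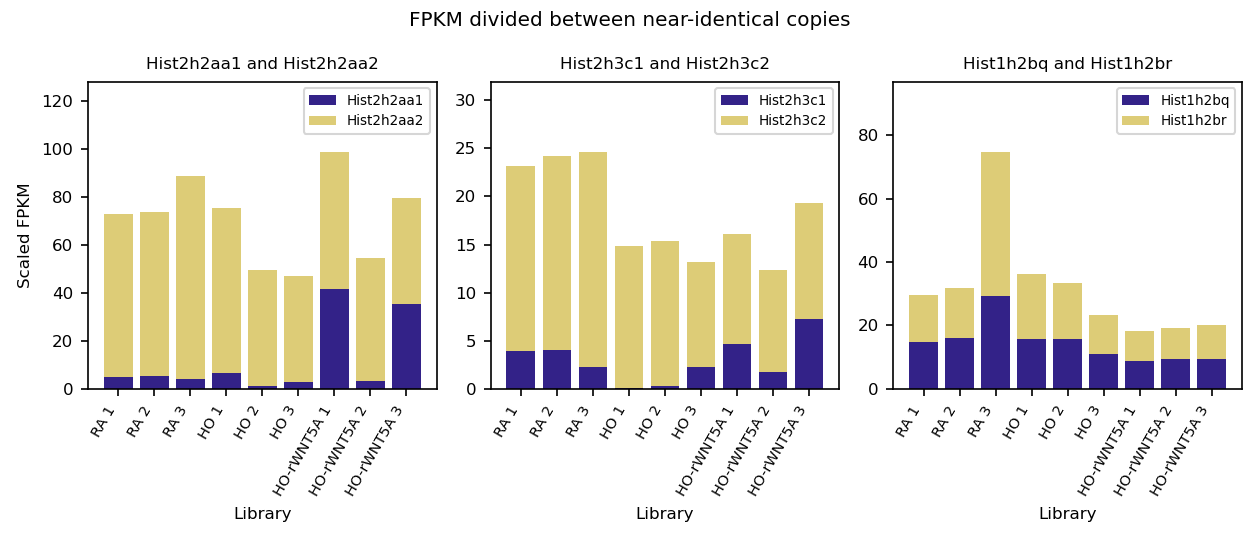
Scaled FPKM of 3 pairs of genes with identical coding sequences, stacked by copy in each library. Hist2h2aa1 takes 41.7 and 35.3 FPKM in HO-rWNT5A replicates 1 and 3 and 1.33 to 6.63 in the other 7 libraries, and the Hist1h2bq and Hist1h2br pair stands at 74.5 in RA replicate 3.

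The 2 remaining pairs with identical coding sequences had lower sums in every HO-rWNT5A library than in every RA library. Hist1h2ao and Hist1h2ap summed to 29 ± 4.86, 20.4 ± 5.12 and 15.02 ± 1.94 FPKM in RA, HO and HO-rWNT5A, a ratio of HO-rWNT5A to RA of 0.518. Hist1h4m and Hist1h4n summed to 157 ± 14.05, 139 ± 20.5 and 117 ± 1.34, a ratio of 0.746. When genes with identical coding sequences were merged into 1 feature, 16 of 58 histone features passed in HO-rWNT5A against RA, 2 in HO against RA and 0 in HO-rWNT5A against HO. Over all features of that fit the shares were 4.33%, 1.97% and 0.00723%.

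Members with longer transcript models had a median nearer to 0. In 22 tested genes a model had 300 or more bases after the coding sequence, as in Hist1h1c, where 840 bases follow the stem-loop. Among these 22 the median log2 fold change of HO-rWNT5A against RA was -0.22 and 3 fell, whereas among the 41 without such a model the median was -0.50 and 16 fell. In HO against RA the medians were -0.13 and -0.24. By promoter motif, the median in HO-rWNT5A against RA was -0.25 in 11 genes with the H4 element and -0.45 in 46 without it. It was -0.42 in 11 genes with the octamer and -0.39 in 46 without, and -0.39 in 21 with TATAAA and -0.39 in 36 without. For the CCAAT box it was -0.41 in 46 with it and -0.25 in 11 without, and for the H1 box -0.35 in 6 and -0.42 in 51. None of these differences was tested, and the H4 element largely follows the H4 class. The split by model also goes partly with class, since Hist1h2ac and Hist3h2a are the only H2A genes with a longer model. In HO-rWNT5A against RA the median was -0.53 in H2A and -0.20 in H4. The sums of genes with and without a longer model had ratios of 0.809 and 0.736 for HO-rWNT5A to RA. For HO-rWNT5A to HO these ratios were 0.843 and 0.848, while the median log2 fold changes were -0.13 and -0.29.

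Among listed genes linked to the making and decay of histone messenger RNA, 4 calls were made over the 3 comparisons. They were for the cyclins Ccna2 and Ccne2 and for Tut7, and Ccne2 is also in the S phase list below. In a list of 28 tested genes for histone gene transcription and 3′ end processing, 1 fell and 0 rose in HO against RA, 0 passed in HO-rWNT5A against HO, and 2 fell and 1 rose in HO-rWNT5A against RA, with medians of -0.01, 0.01 and 0.03. For this and the other lists, the shares of all features were 0.788% lower and 1.19% higher in HO against RA, 0.00723% in either direction in HO-rWNT5A against HO, and 1.92% lower and 2.42% higher in HO-rWNT5A against RA. Slbp, the stem-loop binding protein, averaged 11.5 ± 0.764, 11.5 ± 1.10 and 10.7 ± 0.978 FPKM in RA, HO and HO-rWNT5A (SD, n = 3). Npat, the coactivator of histone genes at the histone locus body, averaged 5.83 ± 0.515, 5.04 ± 0.701 and 5.60 ± 0.188, and Lsm11, a subunit of the U7 particle that acts in cleaving histone precursors, 2.93 ± 0.115, 2.93 ± 0.222 and 2.83 ± 0.0285. None of these passed. The genes that fell were the cyclins Ccna2 (7.03 ± 0.527, 5.02 ± 0.143 and 4.37 ± 0.294, passing against RA in both comparisons) and Ccne2 (3.21 ± 0.159, 2.51 ± 0.172 and 2.01 ± 0.0953, passing in HO-rWNT5A against RA), both partners of CDK2. Tut7, a uridylyl transferase implicated in histone mRNA decay, averaged 20.4 ± 0.783, 22.6 ± 1.22 and 24.5 ± 0.745 and rose in HO-rWNT5A against RA.

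Of 23 tested genes whose products carry and deposit histones, 1 rose in HO against RA, 0 passed in HO-rWNT5A against HO, and 3 fell and 1 rose in HO-rWNT5A against RA. Those that fell were Chaf1b, a subunit of the replication-coupled assembly factor CAF-1 (log2 fold change -0.38), Hat1, which acetylates new H4 (-0.33), and Hjurp, the chaperone of the centromeric histone (-0.26). Dnajc9, a heat shock co-chaperone of H3 and H4, rose in HO against RA (0.32) and in HO-rWNT5A against RA (0.46).

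Among 11 replication-independent histone genes, which are expressed outside S phase as well, only Cenpa, the centromeric H3 variant, passed. It averaged 9.15 ± 0.266, 6.37 ± 0.848 and 5.35 ± 0.652 FPKM in RA, HO and HO-rWNT5A and fell in both comparisons with RA. H3f3b, encoding the replacement histone H3.3, averaged 112 ± 1.64, 132 ± 9.70 and 127 ± 5.61. H2afz averaged 50.03 ± 1.19, 48.4 ± 6.26 and 47.6 ± 1.90, and H1f0, a linker histone known from resting cells, averaged 16.3 ± 0.807, 21.1 ± 2.50 and 18.7 ± 1.51. The median of the 11 in HO-rWNT5A against RA was -0.09, beside -0.39 for the replication-dependent genes and 0.00 for all features.

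Of 31 tested genes of DNA replication and S phase, 1 fell in HO against RA (Mcm4), 0 passed in HO-rWNT5A against HO and 5 fell in HO-rWNT5A against RA (Mcm2, Mcm4, Pcna, Uhrf1 and Ccne2), with medians of -0.09, -0.06 and -0.21. Pcna, the sliding clamp of replication, averaged 23.9 ± 0.963, 22.6 ± 2.43 and 18.7 ± 1.11 FPKM in the 3 groups. Of 23 tested mitosis genes, 13 fell in HO against RA, 0 passed in HO-rWNT5A against HO and 14 fell in HO-rWNT5A against RA, with medians of -0.47, -0.07 and -0.45. Those that fell in both comparisons with RA were cyclins, kinases, kinesins and other genes of cell division, Ccnb1, Ccnb2, Plk1, Prc1, Mki67, Top2a, Aurka, Kif11, Kif20a, Kif2c, Tpx2 and Nuf2, while Kif23 passed in HO against RA, and Cdk1 and Bub1 in HO-rWNT5A against RA. For these 3 genes HO-rWNT5A against HO, which is the difference between the comparisons with RA, did not pass. Mki67, a marker of proliferating cells, averaged 3.07 ± 0.379, 1.86 ± 0.182 and 2.08 ± 0.179. The summed FPKM of the 25 mitosis genes ranged over 119 to 124 with RA, 81.4 to 87.8 with HO and 74.7 to 86.1 with HO-rWNT5A. The mitosis count in HO against RA was 2, 0 and 2 without RA replicate 1, 2 or 3, where 0.0217% to 0.181% of all features passed, and 8, 7 and 15 without HO replicate 1, 2 or 3. In HO-rWNT5A against RA it was 8 to 15 without any 1 library. For the 4 other lists the count in HO against RA was 0 without any 1 of the RA libraries. For the mitosis sum, as for the S phase sum, the 3 HO libraries lay below RA, whereas for the histone sum HO replicates 1 and 2 lay with RA and HO replicate 3 lay below the HO-rWNT5A libraries.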

How the data were processed

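RNA was measured in 9 libraries, 3 each of RA, HO and HO-rWNT5A. Per the labels' protocols, the authors read total RNA as 150-base pairs, trimmed with Skewer 0.2.2, aligned with STAR 2.5.3a, assembled with StringTie 1.3.1 and merged with gffcompare 0.9.9c. The deposited values are the authors' FPKM per transcript, per the labels. The submitters' processing notes add FastQC 0.11.2 and DESeq2, and name hg38 and mm10 without a role. Handling of fragments matching several histone copies, and whether libraries were strand-specific, are not given in the sources used here. FPKM does not keep read depth: 9.67% to 11.0% of values were whole multiples (within 0.02) of a supposed single fragment, so no count test was run and depths are rough.

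Of 142351 Ensembl transcripts, 141441 matched GENCODE M21. FPKM was summed per gene and scaled by the median ratio over 12595 genes of at least 1 FPKM in every library, a set chosen after calls had been seen, to follow earlier processing (factors 0.947 to 1.04). limma 3.58.1 (R 4.3.3) fitted log2(FPKM + 1) over all 9 libraries with a variance trend, two-sided, so the change of low genes is understated. An exact permutation test of 3 against 3 libraries cannot go below p = 0.1. Same-numbered libraries deviated together with r from -0.118 to 0.279, so the numbers were not taken to pair them.

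The members and lists were chosen with earlier results of these data known. Values per library are given for the 12 passing members with the smallest adjusted p in HO against RA and the 2 highest members of each class. List genes are named where they passed, with 8 named whatever their value (Slbp, Npat, Lsm11, H2afz, H3f3b, H1f0, Mki67 and Pcna). Others are said to be named after their values were seen, as are the copy pairs and the features of models and promoters. Sequences came from GENCODE M21 and RefSeq (GRCm38.p6). Alternatives changed the pseudocount, filter, scaling, variance model, groups fitted and libraries, and merged identical copies. Other steps ran in Python 3.11.15 with numpy 2.4.6, and figures in matplotlib 3.10.9.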

Additional observations from a re-analysis of the deposited data

How the results depend on the processing

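No called change turned its direction under any alternative, while some untested ratios of class and cluster sums crossed 1 with 1 library left out (in HO to RA those of H1, H3, H4 and Hist1, in HO-rWNT5A to HO those of H2A and Hist2, and in HO-rWNT5A to RA that of Hist4). Sums of copy pairs and of genes split by model were not recomputed this way. The count of histone genes passing in HO against RA (2) was 0 without a filter on low values, 1 with the compared groups fitted alone, 1 with a replicate block, 4 over protein-coding genes alone, and 0 to 7 with 1 library left out. In HO-rWNT5A against HO (0) it was 0 to 7 with 1 library left out. In HO-rWNT5A against RA (19) it was 2 without a filter, 40 (39 of them lower) with the compared groups alone, 12 with a replicate block and 5 to 33 with 1 library left out. It was also 40 without HO replicates 2 and 3 together, an alternative added after seeing the data, as were merging identical copies and the scaling over other gene sets (16 to 20). Under all other alternatives these counts stayed within 1.5 times (2 to 3, 0, and 14 to 25). Leaving out a library also leaves fewer residual degrees of freedom; the cause of the other shifts was not tested. The block could not change a direction, since every group holds replicates 1 to 3 and the fold changes stay the same. Nor could the filters, the variance models, the groups fitted or a library left out of the group not compared. The replicate numbers are not shown to pair the libraries.

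Without its highest member, the H1 sum gave ratios of 0.658 (HO to RA) and 0.582 (HO-rWNT5A to RA), Hist3 gave 1.65 (HO to RA) and 0.633 (HO-rWNT5A to HO), and for HO-rWNT5A to RA H3 gave 0.663 and H4 0.841. With FPKM as deposited, HO-rWNT5A to RA was 0.681 for H2B, 0.773 for H4 and 0.714 for Hist1. With 1 library left out, HO-rWNT5A to HO ranged over 0.762 to 0.910 for all members, 0.826 to 0.968 for H1, 0.857 to 1.07 for H2A, 0.754 to 0.864 for H2B, 0.688 to 0.829 for H3, 0.760 to 0.925 for H4, 0.759 to 0.907 for the core classes, 0.739 to 0.875 for Hist1 and 0.872 to 0.970 for Hist3. The same for HO-rWNT5A to RA was 0.729 to 0.793 for all members, 0.685 to 0.772 for H2B, 0.779 to 0.850 for H4, 0.725 to 0.788 for the core classes and 0.725 to 0.785 for Hist1. Over all alternatives, 424 ratios moved by less than the spread between libraries and 35 by more.

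With FPKM as deposited, the calls over all features were 179 lower of 282 in HO against RA and 615 lower of 824 in HO-rWNT5A against RA, compared with 109 of 273 and 266 of 601 after scaling. The lowest median of all features under any scaling was -0.06 on the log2 scale. FPKM without counts leaves the precision of low genes unknown.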

Other observations

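GENCODE M21 also holds 3 genes with Hist1h or Hist3h names that are not annotated as protein-coding, and these were not counted with the members. Hist1h2al averaged 34.02 ± 3.76, 30.9 ± 9.28 and 29.8 ± 2.06 FPKM in RA, HO and HO-rWNT5A (SD, n = 3), a level above most H2A genes, and its groups overlapped. Hist1h2aj stood at 7.26, 7.08 and 7.003 FPKM in the RA libraries, 10.5, 8.60 and 7.48 in the HO libraries and 5.11, 6.43 and 7.16 in the HO-rWNT5A libraries, and its HO libraries were above both other groups. Hist3h2bb-ps averaged 0.137 ± 0.0846, 0.141 ± 0.0845 and 0.126 ± 0.143.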
